A study of Mus musculus with 12 samples.

Results

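The enzymes described here lengthen fatty acids or place double bonds in them. They are the elongases *Elovl1*, *Elovl2*, *Elovl3* and *Elovl5* and the desaturases *Fads1* and *Fads2*, 6 of the 38926 gene symbols counted in mouse liver. They were taken by symbol from the count table of each sample, and all 6 passed the filter on low counts. RNA of 12 liver samples (livers below) was sequenced, with 3 in each of 4 groups: wild-type at ZT8, *Rev-erbα-/-* at ZT8, wild-type at ZT20 and *Rev-erbα-/-* at ZT20, where ZT is zeitgeber time in hours after lights on. All animals were 12 weeks old, on a mixed 129Ola/C57BL6 background, and per the study's methods they were male, had food at all times and lived in equal spans of light and darkness. The *Rev-erbα-/-* mice came from heterozygous parents and lacked a functional *Nr1d1*, the gene of the transcriptional repressor REV-ERBα, in every tissue and from conception, so that effects arising in liver cells and elsewhere in the animal cannot be told apart. The labels call the samples replicates without stating whether each came from a separate animal. The p-values below set differences between groups against the spread between these samples.

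Fatty acids are lengthened in the endoplasmic reticulum by adding carbons in repeated cycles, and the elongase that starts each cycle sets which chains are accepted. ELOVL1 and ELOVL3 act on saturated and monounsaturated chains, whereas ELOVL2 and ELOVL5 act mainly on polyunsaturated chains, alternating with the desaturases FADS2 and FADS1 on the way from linoleic and alpha-linolenic acid to arachidonic and docosahexaenoic acid. *Elovl3* is known in liver for its daily rhythm and is also strongly expressed in brown fat.

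The genes lie on 4 chromosomes of the mm10 build, and all are protein-coding in the GENCODE annotation. *Elovl3* spans 46131897 to 46135694 on the forward strand of chromosome 19. On the same chromosome, *Fads2* (10062765 to 10101746, reverse strand) and *Fads1* (10182888 to 10196877, forward strand) lie 81141 bp apart. *Elovl5* is on chromosome 9 (77917364 to 77984519, forward), *Elovl1* on chromosome 4 (118428093 to 118432953, forward) and *Elovl2* on chromosome 13 (41182381 to 41220405, reverse). Reads were counted without regard to strand. The exons of *Elovl1* share 53 bp (1.94% of their length) with *Cdc20*, and those of *Elovl3* share 10 bp (0.506%) with *Pitx3*, both on the opposite strand. A read touching exons of both genes was counted for neither, if the authors' annotation holds the same overlaps.

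Promoter windows from RefSeq (GRCm38.p6, which has the mm10 coordinates), reaching from 250 bases before to 50 bases after a start site, were matched for 4 of the 6 genes and numbered 6 in all, 2 each for *Elovl1* and *Elovl2* and 1 each for *Elovl5* and *Fads2*. They were searched on both strands for motifs read by clock and lipid factors: AGGTCA (the core bound by many nuclear receptors), the RORE (the element of REV-ERBα, which contains that core), CACGTG (E-box), TTATGTAA and TTACGTAA (D-box), and the sterol response element of SREBP factors. The windows with a match are printed, 5′ to 3′ on the strand of the gene and with the match in capitals, as the only windows of these genes in which any of the letters occur.
Elovl5, chr9:77917115-77917414, forward strand: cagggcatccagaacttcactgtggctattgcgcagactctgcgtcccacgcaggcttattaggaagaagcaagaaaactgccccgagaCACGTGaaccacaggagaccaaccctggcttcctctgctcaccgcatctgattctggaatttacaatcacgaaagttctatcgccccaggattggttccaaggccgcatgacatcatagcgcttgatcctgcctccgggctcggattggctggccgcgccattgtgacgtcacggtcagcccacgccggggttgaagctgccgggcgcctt
Elovl1, the window of its downstream start site, chr4:118429451-118429750, forward strand: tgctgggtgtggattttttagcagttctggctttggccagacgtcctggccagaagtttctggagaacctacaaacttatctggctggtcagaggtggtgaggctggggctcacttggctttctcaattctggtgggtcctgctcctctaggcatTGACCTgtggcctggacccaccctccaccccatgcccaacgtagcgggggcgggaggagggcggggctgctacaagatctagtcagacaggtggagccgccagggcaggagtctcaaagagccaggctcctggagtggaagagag
In the *Elovl5* window an E-box began 161 bases before the start site. An E-box was present in 7.15% of the 32851 promoter windows of the mouse table. The *Elovl1* window held the nuclear receptor core on the reverse strand, read there as TGACCT from 95 bases before the start site, and 16.3% of all windows held it. The other *Elovl1* window and those of *Elovl2* and *Fads2* contained none of the motifs. The RORE, the D-box and the sterol response element were in none of the 6 windows, against 0.219%, 1.06% and 0.0913% of all windows. A match of letters does not show binding, and no binding was measured here.

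Between 17641809 and 26060192 reads were counted per liver, and the lowest count of any of the 6 genes was 742 reads (*Elovl1*). Levels are given as CPM, counts scaled to library size by the TMM method. *Nr1d1* stood at 129, 96.2 and 75.3 CPM in the wild-type livers at ZT8 and at 63.0, 71.9 and 80.6 CPM in the *Rev-erbα-/-* livers, and it fell to between 1.86 and 3.57 CPM at ZT20. By qRT-PCR of liver, the paper reports *Rev-erbα* mRNA as absent from the knockout animals. The ranges of CPM here overlap at ZT8, and counts per symbol do not show which exons are transcribed. These counts are therefore no check of the genotype. *Arntl*, a known target of REV-ERBα chosen for this purpose after its values were seen, averaged 0.652 ± 0.181 (SD, n = 3) CPM in wild-type and 24.2 ± 1.52 CPM in *Rev-erbα-/-* livers at ZT8. Wild-type replicates 2 and 3 at ZT8 stood apart by their acute-phase genes. *Saa1*, an acute-phase protein gene, reached 4972 and 6489 CPM in them, against 60.8 CPM in replicate 1 and between 21.2 and 96.8 CPM in the 9 livers of the other groups. Lower levels at ZT8 in the *Rev-erbα-/-* group passed the edgeR test described below for all 5 acute-phase genes examined (0 of 5 by limma-voom), and calls of named genes that rest on this group are therefore also given without these 2 livers, most of them beside the value. Their part in the results was otherwise not tested. Hepatocyte marker genes were abundant, with a sum of 58614 to 108734 CPM. The 5 adipocyte markers summed to at most 0.179 CPM, with *Lep* at 0 in every liver, so that defining markers of fat cells, in some of which *Elovl3* is also active, were at or near 0. Alignments to several places, which were not counted, amounted to 1.76 to 3.28 per counted read at ZT8 and 1.24 to 1.67 at ZT20.

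At ZT8, the light phase, *Elovl3* was about 4 times as high in *Rev-erbα-/-* as in wild-type livers, and *Elovl5* was moderately higher. *Elovl1*, *Elovl2*, *Fads1* and *Fads2* did not pass the test at that time. By ZT20, in the dark phase, *Elovl3* had reached a high level in both genotypes, and *Elovl5* had turned to the opposite side, lower in *Rev-erbα-/-* livers. The question behind these comparisons was which liver transcripts the loss of REV-ERBα alters when the repressor is abundant (ZT8) and when it is scarce (ZT20).

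**Figure D1:**
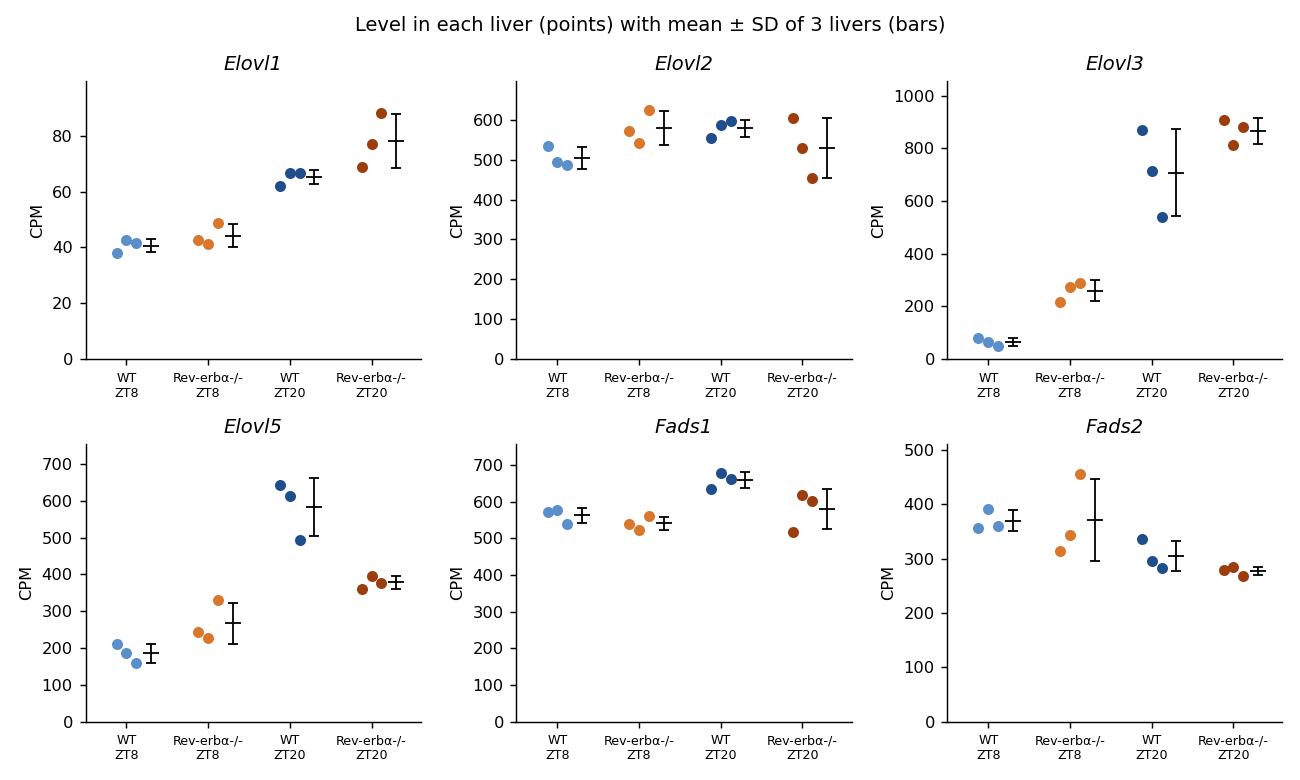
Level of each of the 6 genes in CPM in each liver (points, 3 per group) with the mean and SD of the group beside them (bars), for wild-type (blue) and *Rev-erbα-/-* (orange) livers at ZT8 (light shade) and ZT20 (dark shade). *Elovl3* lay between 49.9 and 79.1 CPM in wild-type livers at ZT8 and above 200 CPM in every other liver, and for *Elovl5* the wild-type points lay below the *Rev-erbα-/-* points at ZT8 and above them at ZT20.

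*Elovl3* encodes an elongase of saturated and monounsaturated very long chains. Its level in the wild-type livers at ZT8 was 79.1, 63.8 and 49.9 CPM. In the *Rev-erbα-/-* livers of that time it was 216, 275 and 289 CPM. Every *Rev-erbα-/-* liver was above every wild-type liver. The mean rose from 64.3 ± 14.6 to 260.1 ± 38.9 (SD, n = 3) CPM, which is a fold change of 4.04 (95% interval 3.02 to 5.41), a log2 fold change of 2.02 (SE 0.193) and an adjusted p of 5.66e-05. Here and below, an adjusted p comes from edgeR's quasi-likelihood test over 14488 genes with Benjamini-Hochberg adjustment, and a gene passed if it was below 0.05. Only 51 of these genes had a higher log2 fold change than *Elovl3* in this comparison. With 3 livers against 3, the exact two-sided permutation test gives p = 0.1 for groups that do not overlap, the smallest p it allows. Without the 2 wild-type livers with high acute-phase genes, the log2 fold change was 1.71 and the gene still passed, in a fit where the remaining wild-type liver is assumed to vary like the other groups.

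At ZT20 the level of *Elovl3* in wild-type livers was 869, 714 and 541 CPM. The *Rev-erbα-/-* livers had 908, 812 and 880.4 CPM. The ranges overlap, and the wild-type livers were more scattered. Means were 708 ± 164 and 867 ± 49.4 CPM (SD, n = 3). The log2 fold change was 0.29 (95% interval -0.11 to 0.69, edgeR adjusted p = 0.531), which leaves room for a rise of up to 1.62-fold. The genotype effect at ZT8 exceeded that at ZT20 by 1.72 on the log2 scale (SE 0.264, 95% interval 1.15 to 2.30, edgeR adjusted p = 0.00223), and it was 1.42 without the 2 acute-phase livers.

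*Elovl5*, whose product takes polyunsaturated chains through the early rounds of lengthening, changed in opposite directions at the different times. The ZT8 levels were 211, 187 and 159 CPM in wild-type livers. They were 243, 228 and 331 CPM in *Rev-erbα-/-* livers. The groups did not overlap, although the lowest *Rev-erbα-/-* liver was close to the highest wild-type liver. The fold change was 1.44 (95% interval 1.16 to 1.78, log2 0.52, SE 0.143, edgeR adjusted p = 0.0367), from 186 ± 26.1 to 267 ± 55.4 (SD, n = 3) CPM. The call was lost on leaving out wild-type ZT8 replicate 2 (edgeR adjusted p = 0.117) or 3 (0.137), *Rev-erbα-/-* ZT8 replicate 3 (log2 0.34, 0.113), wild-type ZT20 replicate 2 (0.0546) or *Rev-erbα-/-* ZT20 replicate 2 (0.0539). It was also lost without the 2 acute-phase livers (log2 0.34, 0.529) and in a fit of the 6 ZT8 livers alone (0.0941).

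The same gene at ZT20 stood at 642, 613 and 493 CPM in wild-type livers. It reached 362, 396 and 378 CPM in the *Rev-erbα-/-* livers. All *Rev-erbα-/-* values lay below all wild-type values, with a gap between the groups. The fold change was 0.649 (95% interval 0.525 to 0.803, log2 -0.62, SE 0.143, edgeR adjusted p = 0.0264), from 583 ± 78.7 to 378 ± 17.1 (SD, n = 3) CPM. Leaving out wild-type ZT20 replicate 1 (edgeR adjusted p = 0.107) or 2 (0.119), or *Rev-erbα-/-* ZT20 replicate 1 (0.0921), 2 (0.0746) or 3 (0.0729), ended this call. The difference between the genotype effects at ZT8 and ZT20 was 1.15 on the log2 scale (SE 0.202, 95% interval 0.71 to 1.58, edgeR adjusted p = 0.00382). That difference passed in all 12 fits with 1 liver left out, with adjusted p between 0.00209 and 0.0149, and was 0.95 with edgeR adjusted p = 0.0568 without the 2 acute-phase livers.

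**Figure D2:**
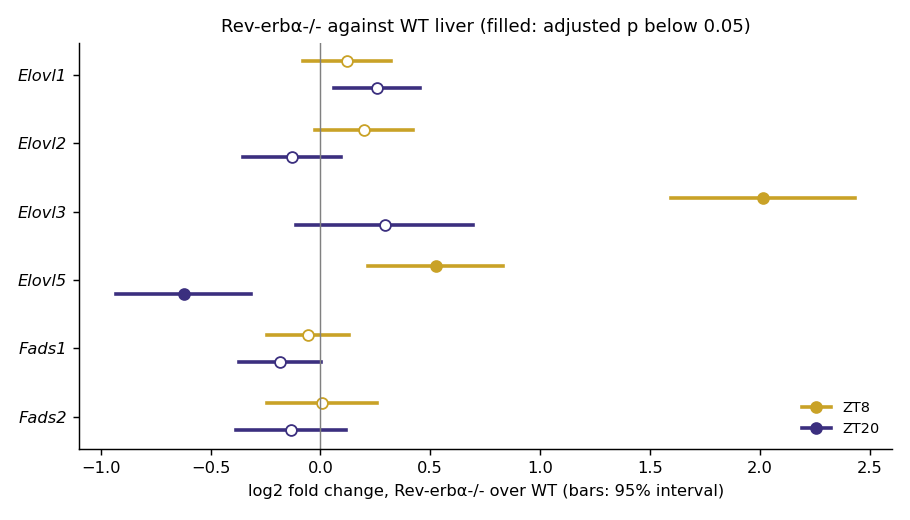
Log2 fold change of *Rev-erbα-/-* over wild-type liver (horizontal axis) for each gene at ZT8 (yellow) and ZT20 (purple), with 95% intervals as bars and filled points for an adjusted p below 0.05. *Elovl3* at ZT8 (2.02) lies apart from all other points, and *Elovl5* is at 0.52 at ZT8 and at -0.62 at ZT20.

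Of the 6 genes, 2 passed at ZT8, both higher in *Rev-erbα-/-* livers. Over all genes 8.45% passed, 4.40% as higher and 4.04% as lower. At ZT20, 1 of the 6 passed, in the lower direction, against 3.63% of all genes in either direction, 2.09% as higher and 1.54% as lower. The difference between the times passed for 2 of the 6 genes and for 5.88% of all genes, with 3.05% above 0 and 2.83% below 0. Groups without overlap were seen for 3 of the 6 genes at each time, against 25.6% of all genes at ZT8 and 22.5% at ZT20. These counts were not tested against the shares of all genes, and 6 genes are few for such a comparison. The median log2 fold change of the 6 genes was 0.16 at ZT8 and -0.13 at ZT20, and that of all genes tested was 0.0018 and -0.00068.

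*Elovl1*, the elongase of saturated and monounsaturated chains that supplies very long acyl groups for sphingolipids, had the lowest level of the 6 genes per length of transcript. Wild-type livers at ZT8 had 37.9, 42.6 and 41.6 CPM, and *Rev-erbα-/-* livers had 42.5, 41.2 and 48.9 CPM. At ZT20 the values were 62.2, 66.8 and 66.8 CPM in wild-type and 68.8, 77.2 and 88.1 CPM in *Rev-erbα-/-* livers. The genotypes overlapped at ZT8 and did not at ZT20. The log2 fold change was 0.12 (95% interval -0.08 to 0.32, edgeR adjusted p = 0.476) at ZT8. It was 0.26 (0.06 to 0.45, edgeR adjusted p = 0.168) at ZT20, where the interval alone is above 0 but the adjusted p does not pass.

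*Elovl2* encodes the elongase of the later steps towards docosahexaenoic acid. Its level was 536, 493 and 486 CPM in wild-type and 572, 541 and 626 CPM in *Rev-erbα-/-* livers at ZT8. At ZT20 it was 556, 586 and 597 CPM in wild-type and 605, 529.6 and 455 CPM in *Rev-erbα-/-* livers. Every *Rev-erbα-/-* liver was above the wild-type livers at ZT8, by a small margin, and at ZT20 the *Rev-erbα-/-* values spread to both sides of the wild-type values. The log2 fold change was 0.20 (95% interval -0.02 to 0.42, edgeR adjusted p = 0.265) at ZT8 and -0.13 (-0.35 to 0.09, edgeR adjusted p = 0.647) at ZT20. A change of more than 1.34-fold in the upward direction is outside the interval at ZT8.

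*Fads2*, the desaturase of the entry step into polyunsaturated fatty acid synthesis, had 356, 391 and 361 CPM in wild-type livers at ZT8. The *Rev-erbα-/-* livers had 314, 344 and 455 CPM. Replicate 3 was the highest of its group and the other two lay below all wild-type livers. With the means at 369 ± 19.1 and 371 ± 74.6 (SD, n = 3) CPM, the log2 fold change was 0.01 (95% interval -0.24 to 0.26, edgeR adjusted p = 0.982), and it was -0.17 without *Rev-erbα-/-* ZT8 replicate 3. At ZT20, *Fads2* had 336, 296 and 282 CPM in wild-type and 278, 284 and 269 CPM in *Rev-erbα-/-* livers. These groups overlap narrowly, and the log2 fold change was -0.14 (95% interval -0.38 to 0.11, edgeR adjusted p = 0.685).

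*Fads1*, the desaturase that completes arachidonic and eicosapentaenoic acid, varied least between livers of a group at ZT8. Levels were 574, 576 and 539.5 CPM in wild-type and 541, 524 and 560.4 CPM in *Rev-erbα-/-* livers. At ZT20 they were 635, 679 and 663 CPM in wild-type and 518, 618 and 604 CPM in *Rev-erbα-/-* livers. The groups overlap at ZT8, and at ZT20 all *Rev-erbα-/-* livers lay below the wild-type livers. The log2 fold change was -0.06 (95% interval -0.24 to 0.13, edgeR adjusted p = 0.756) at ZT8 and -0.18 (-0.37 to 0.00, edgeR adjusted p = 0.350) at ZT20. For none of *Elovl1*, *Elovl2*, *Fads1* and *Fads2* did the genotype effect differ between the times by the edgeR test (log2 differences of -0.14, 0.33, 0.13 and 0.14, with adjusted p from 0.229 to 0.695). Without the 2 acute-phase livers the log2 fold changes of these genes at ZT8 were 0.22, 0.11, -0.09 and 0.05, and none passed by edgeR (adjusted p from 0.545 to 0.938).

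Between ZT8 and ZT20 the elongases *Elovl3*, *Elovl5* and *Elovl1* rose in both genotypes. The rise of *Elovl3* and *Elovl5* was smaller in *Rev-erbα-/-* livers, and that of *Elovl1* was 1.60-fold in wild-type and 1.76-fold in *Rev-erbα-/-* livers. These comparisons use the same livers as the genotype comparisons above, and the test of unequal rises is the same contrast as the test of unequal genotype effects.

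*Elovl3* rose 11.0-fold (95% interval 8.09 to 15.0, log2 3.46, SE 0.204, edgeR adjusted p = 1.79e-07) in wild-type livers. The rise was 3.33-fold (2.50 to 4.44, log2 1.74, SE 0.190, edgeR adjusted p = 7.93e-05) in *Rev-erbα-/-* livers. Among all genes, 29 had a larger log2 rise than *Elovl3* in wild-type and 102 in *Rev-erbα-/-* livers. *Elovl5* rose 3.14-fold (2.52 to 3.90, edgeR adjusted p = 1.81e-06) in wild-type and 1.42-fold (1.14 to 1.75, edgeR adjusted p = 0.0260) in *Rev-erbα-/-* livers. The latter call was lost without *Rev-erbα-/-* ZT8 replicate 1 (edgeR adjusted p = 0.0956) or 2 (0.116), or *Rev-erbα-/-* ZT20 replicate 2 (0.0916) or 3 (0.0621). *Elovl1* passed in both genotypes (edgeR adjusted p = 6.71e-05 in wild-type and 3.01e-05 in *Rev-erbα-/-*). Without the 2 acute-phase livers, the wild-type log2 rises were 3.16 for *Elovl3*, 1.46 for *Elovl5* and 0.78 for *Elovl1*, and all 3 passed.

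*Fads2* went the other way. Its fold change was 0.747 (95% interval 0.628 to 0.888, edgeR adjusted p = 0.0221) in *Rev-erbα-/-* livers and 0.824 (0.693 to 0.980, edgeR adjusted p = 0.0907) in wild-type livers. The fall in *Rev-erbα-/-* livers was lost in a fit of those 6 livers alone (edgeR adjusted p = 0.0506), without ZT8 replicate 3 (log2 -0.25, 0.0950) and without ZT20 replicate 1 (0.0508), 2 (0.0603) or 3 (0.0647). *Fads1* had a log2 change of 0.23 (0.04 to 0.41, edgeR adjusted p = 0.0685) in wild-type and 0.10 (-0.09 to 0.29, edgeR adjusted p = 0.497) in *Rev-erbα-/-* livers. *Elovl2* had 0.20 (-0.02 to 0.42, edgeR adjusted p = 0.176) and -0.13 (-0.35 to 0.09, edgeR adjusted p = 0.441).

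**Figure D3:**
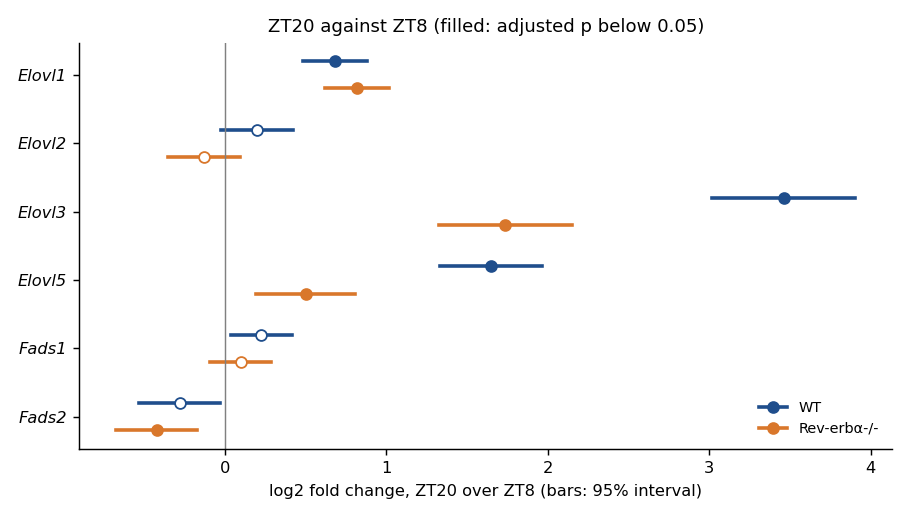
Log2 fold change of ZT20 over ZT8 (horizontal axis) for each gene in wild-type (blue) and *Rev-erbα-/-* (orange) livers, with 95% intervals as bars and filled points for an adjusted p below 0.05. The points of *Elovl3* (3.46 and 1.74) and *Elovl5* (1.65 and 0.50) are far apart between genotypes, whereas those of *Elovl1* (0.68 and 0.82) lie together.

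In wild-type livers 3 of the 6 genes passed between the times, all higher at ZT20, against 27.7% of all genes in either direction, 13.8% as higher and 13.9% as lower. In *Rev-erbα-/-* livers 4 passed, 3 higher and 1 lower, against 17.5% of all genes, 8.79% as higher and 8.67% as lower. The times did not overlap for all 6 genes in wild-type livers and for 4 in *Rev-erbα-/-* livers, where 42.3% and 35.0% of all genes did not overlap. The median log2 change of the 6 genes was 0.45 and 0.30, and that of all genes -0.00021 and 0.0063. The summed hepatocyte markers also differed between the times in wild-type livers, from 58614 to 81040.3 CPM at ZT8 and from 98409.5 to 108734 CPM at ZT20, and less so in *Rev-erbα-/-* livers, from 66480.3 to 92834 CPM and from 87634 to 95714 CPM. Of the 6 hepatocyte markers, edgeR called 3 as higher and 1 as lower at ZT20 in wild-type livers. In *Rev-erbα-/-* livers it called 0 as higher and 2 as lower, so that the sum hides markers that fell. The shares of all genes are those given above. The part of these markers in the results was not tested. In whole liver, fewer cells of a type and less RNA per cell cannot be told apart.

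Levels of different genes were compared as CPM per kilobase of exon. In wild-type livers at ZT8, *Elovl2* stood highest at 127 ± 6.79 (SD, n = 3), followed by *Fads1* at 117 ± 4.27 and *Fads2* at 112 ± 5.81, whose ranges overlap. *Elovl5* (52.8 ± 7.40), *Elovl3* (32.5 ± 7.39) and *Elovl1* (14.9 ± 0.917) were lower, each below the one before without overlap. In *Rev-erbα-/-* livers at ZT8, *Elovl3* reached 131.7 ± 19.7 and stood among *Elovl2* (146 ± 10.8), *Fads2* (113 ± 22.6) and *Fads1* (113 ± 3.79), neighbours that overlap in that order, with *Elovl5* (75.9 ± 15.7) and *Elovl1* (16.2 ± 1.501) below them.

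At ZT20 *Elovl3* had the highest level per length in both genotypes, above the next gene without overlap. It was 359 ± 83.2 (SD, n = 3) CPM per kilobase in wild-type and 439 ± 25.0 in *Rev-erbα-/-* livers. In wild-type livers *Elovl5* (165 ± 22.3), *Elovl2* (146 ± 5.39) and *Fads1* (137 ± 4.65) followed with overlapping ranges, and then *Fads2* (92.4 ± 8.45) and *Elovl1* (23.9 ± 0.977). In *Rev-erbα-/-* livers the order was *Elovl2* (134 ± 18.9), *Fads1* (120.5 ± 11.3) and *Elovl5* (107 ± 4.86), again overlapping, with *Fads2* (84.1 ± 2.37) and *Elovl1* (28.6 ± 3.55) last. Dividing by the longest transcript in place of the union of exons moved *Fads1* above *Elovl2* in all 4 groups and left *Elovl3* highest at ZT20. Of the summed CPM of the 6 genes, *Elovl3* made up 3.05% to 4.41% in wild-type livers at ZT8, 11.2% to 14.1% in *Rev-erbα-/-* livers at ZT8, 20.5% to 28.0% in wild-type livers at ZT20 and 29.9% to 33.2% in *Rev-erbα-/-* livers at ZT20. None of these ranges overlap.

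**Figure D4:**
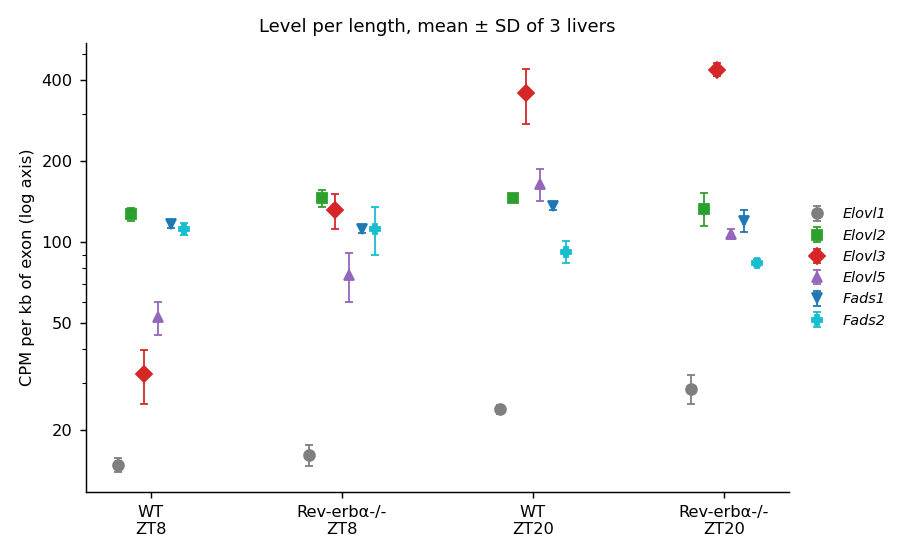
CPM per kilobase of exon (vertical log axis) of each gene in the 4 groups, as the mean of 3 livers with SD bars. *Elovl3* (red diamonds) moves from 32.5 in wild-type livers at ZT8 to 131.7 in *Rev-erbα-/-* livers at ZT8 and to the highest level of all at ZT20, while *Elovl1* stays lowest throughout.

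The genes also varied between livers of the same group. In wild-type livers, *Elovl3* and *Elovl5* were highest in replicate 1 and lowest in replicate 3 at both times, and so were *Elovl6*, the elongase of palmitate, and *Scd1*, the main liver desaturase of saturated chains. In *Rev-erbα-/-* livers at ZT8, replicate 3 was the highest for all 6 genes, and *Scd1* was also highest there, at 5953 CPM against 2830 and 2845 CPM. The coefficient of variation within a group was 5.69% to 23.2% for *Elovl3*, and 3.37% to 9.36% for *Fads1*.

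Other genes of the pathway were followed in the same fit. Of 17 other genes of the elongation cycle and desaturation, 14 could be tested, and *Elovl4*, *Scd3* and *Scd4* had at most 4 reads in any liver. At ZT8, 1 passed as lower and none as higher in *Rev-erbα-/-* livers (edgeR), with a median log2 fold change of 0.0057, a share close to the 8.45% of all genes. It was *Fads3*, a relative of the FADS desaturases that acts on sphingoid bases. *Fads3* had 33.1, 31.0 and 22.2 CPM in wild-type livers at ZT8 and 18.5, 15.1 and 13.6 CPM in *Rev-erbα-/-* livers. All *Rev-erbα-/-* values were below all wild-type values, with a log2 fold change of -0.88 (SE 0.139, edgeR adjusted p = 0.00124), and the gene passed in all 20 alternatives, at -1.08 without the 2 acute-phase livers. At ZT20 it stood at 11.2 ± 0.771 and 11.7 ± 0.338 (SD, n = 3) CPM, and the difference between the times was -0.93 (edgeR adjusted p = 0.0122), or -1.14 (0.00314) without the 2 acute-phase livers. The largest of the changes that did not pass at ZT8 were those of *Scd1* (log2 0.84, edgeR adjusted p = 0.306), *Elovl6* (-0.44, 0.547) and *Hacd4*, a dehydratase of the cycle (-0.32, 0.397). At ZT20, 0 of the 14 passed by edgeR, DESeq2 or limma-voom, where 3.63% of all genes passed by edgeR. An unadjusted edgeR p below 0.05 was seen for 1, and the share of all genes below it was not computed.

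Between the times, 5 of the 14 passed as higher and 2 as lower at ZT20 in wild-type livers (median log2 0.13), and 2 as higher in *Rev-erbα-/-* livers (median 0.15), against 13.8% of all genes as higher and 13.9% as lower in wild-type and 17.5% in either direction in *Rev-erbα-/-* livers. In wild-type livers these were *Scd1* (log2 2.55), *Scd2*, *Tecr* and *Hsd17b12*, which complete the cycle, and *Degs1*, the desaturase of ceramides, with *Fads3* (-1.36) and *Fads6* (-0.33) lower. *Elovl6* (1.47) and *Scd2* (0.54) were the ones in *Rev-erbα-/-* livers. Of 20 alternatives, the *Elovl6* call held in 11, that of *Hsd17b12* in 9, those of *Tecr* and of *Scd2* in wild-type livers in 16 each, and that of *Scd2* in *Rev-erbα-/-* livers in 18. Without the 2 acute-phase livers, the wild-type counts were 0 higher and 1 lower, in a fit with 1 wild-type liver at ZT8.

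**Figure D5:**
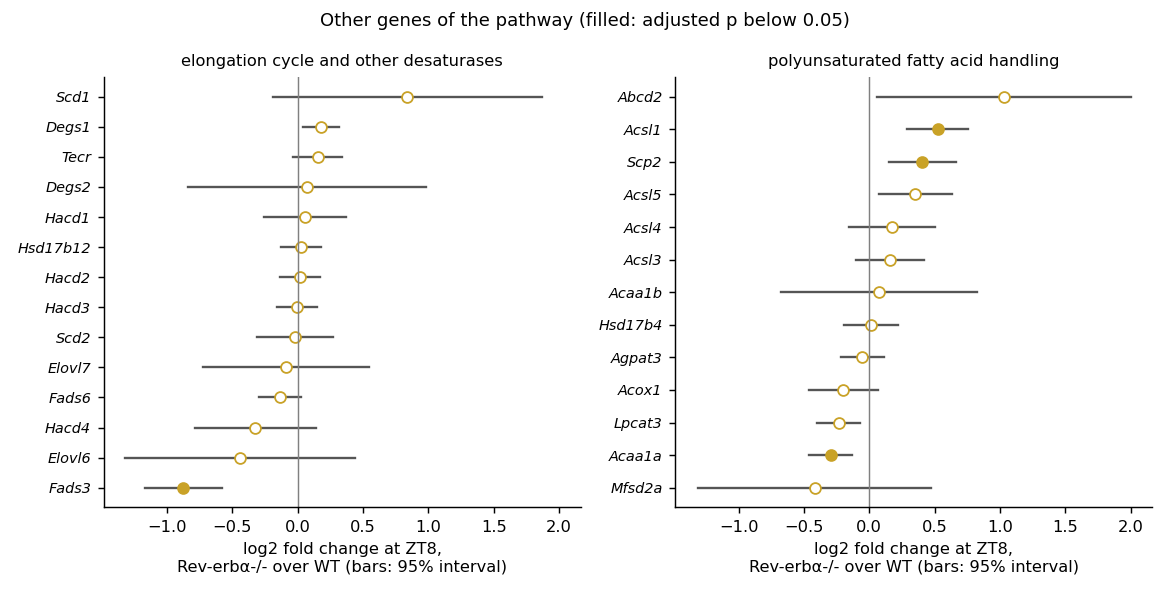
Log2 fold change of *Rev-erbα-/-* over wild-type liver at ZT8 (horizontal axis) for the 14 tested genes of the elongation cycle and other desaturases (left) and 13 of the 14 genes of polyunsaturated fatty acid handling (right), with 95% intervals as bars and filled points for an adjusted p below 0.05. *Fads3* (-0.88) is the only filled point on the left, and *Acsl1*, *Scp2* and *Acaa1a* are filled on the right.

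Of 14 genes that activate, transport, oxidize or esterify polyunsaturated chains, all tested, 2 passed as higher and 1 as lower in *Rev-erbα-/-* livers at ZT8, with a median log2 fold change of 0.044, against 4.40% of all genes as higher and 4.04% as lower. *Acsl1*, which couples long-chain fatty acids to coenzyme A, rose from 1293 ± 42.3 to 1858 ± 234 (SD, n = 3) CPM (log2 0.52, edgeR adjusted p = 0.00828). *Scp2*, a peroxisomal lipid carrier, had a log2 change of 0.40 (edgeR adjusted p = 0.0494) and *Acaa1a*, a peroxisomal thiolase, one of -0.30 (edgeR adjusted p = 0.0257). Reads that fit *Acaa1a* and its close copy *Acaa1b* equally well were not counted, so that both levels may be too low. Without the 2 acute-phase livers the adjusted p of these genes by edgeR was 0.113, 0.488 and 0.169. The *Scp2* call was lost in 12 of 20 alternatives, and the *Acaa1a* call in 5.

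Of the same list, *Abcd2* (log2 1.03, edgeR adjusted p = 0.186), *Mfsd2a* (-0.42, 0.577) and *Acsl5* (0.35, 0.117) had the largest changes at ZT8 that did not pass. When the 2 acute-phase livers were left out, *Abcd2*, a peroxisomal fatty acid transporter, had a log2 change of 2.38. That fit has 1 wild-type liver at ZT8, with 36 *Abcd2* reads (1.43 CPM). The 2 livers left out had 3.14 and 6.61 CPM, and the *Rev-erbα-/-* livers at ZT8 had 7.32, 7.94 and 7.20 CPM. At ZT20, 0 of these 14 passed by edgeR, DESeq2 or limma-voom, where 3.63% of all genes passed by edgeR. An unadjusted edgeR p below 0.05 was seen for 2, without a share of all genes to set beside it. Between the times 7 passed as higher and 1 as lower at ZT20 in wild-type livers (median log2 0.34). Of all genes, 13.8% and 13.9% did. In *Rev-erbα-/-* livers 5 and 1 passed (median 0.29), against 8.79% and 8.67% of all genes. Without the 2 acute-phase livers the wild-type median was 0.28, in a fit with 1 wild-type liver at ZT8. Of 15 regulators of lipid and clock genes, 4 passed as higher and 1 as lower in *Rev-erbα-/-* livers at ZT8 (median log2 -0.10). The shares of all genes were 4.40% and 4.04%. At ZT20, 1 and 1 of these regulators passed (median -0.06), against 2.09% and 1.54% of all genes. Without the 2 acute-phase livers the regulators had a median of -0.00399 at ZT8.

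The profiles most like that of *Elovl3* over the 12 livers, by the root mean square difference of centred log2 CPM, were those of *Cry1* (0.326), *Tubb2a* (0.368), *Pdk4* (0.380), *Fam83f* (0.432) and *Chka* (0.446). The median of this difference over all genes was 1.52, and it was 1.51 for a flat profile. *Cry1*, for example, averaged 6.50 CPM (wild-type) and 26.1 CPM (*Rev-erbα-/-*) at ZT8, and 64.9 CPM (wild-type) and 54.8 CPM (*Rev-erbα-/-*) at ZT20. For *Fads2*, whose profile is much flatter, the nearest were *Polg* (0.0859), *Bcl9l* (0.0912), *Ubtf* (0.0914), *Rabl6* (0.0937) and *Arl16* (0.0955), against 0.220 for a flat profile and a median of 0.315. The livers share depth and scaling across genes, and these values are a description without a test.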

How the data were processed

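Poly(A) libraries were aligned by the authors to mm10 (TopHat). Reads with a unique place in the genome were assigned to symbols in HTSeq's union mode, ignoring strand. The deposited values are these raw counts, 1 file per liver, for 38926 symbols, with no normalization or filter applied. The versions of TopHat and HTSeq are not given in the sources used here, and the submitters' processing notes name DESeq2 1.6.3 for the authors' own tests. Reads outside any gene made up 8.81% to 10.3% of counted and such reads together and were left out. Counted reads numbered 17641809 to 26060192 per liver. Counting error was not compared with the spread between livers gene by gene. It is larger in proportion for genes with few reads, such as *Arntl* in wild-type livers at ZT8 (20, 9 and 14 reads).

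From the counts, filterByExpr kept 14488 genes, and one edgeR 4.0.16 quasi-likelihood fit (R 4.3.3, TMM, robust dispersions, 4 group means, 12 livers) gave both genotype contrasts, their difference and both time contrasts. P-values were adjusted by Benjamini-Hochberg within each contrast. The fits were tested on simulated data. Alternatives were DESeq2 1.42.0, limma-voom (limma 3.58.1), DESeq2 size factors, no filter, at least 10 reads in every liver, only the 6 livers compared, an adjusted p below 0.01, a block for the replicate number, the longest transcript for length, leaving out each liver, and leaving out both wild-type ZT8 livers with high acute-phase genes. Log2 CPM for profiles used a prior count of 2. No pairing of livers by replicate number was seen: of 18 pairs with the same number in different groups, 0 had a correlation of deviations over 0.1. The correlations lay between -0.083 and 0.074, and this check cannot exclude shared handling of livers with the same number. Taken over genes together, replicates of a group differed by more than counting noise, with a chi-square per degree of freedom of 7.81 to 146.

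The 6 genes, the gene lists, the motifs and the marker lists were chosen with earlier results of these data known. The text names all 6 genes, each gene of the 2 pathway lists that passed in a genotype contrast or in the difference, the 3 others of each list with the largest change at ZT8, and the 5 nearest profiles of *Elovl3* and *Fads2*. Regulators are given by counts. The result of 1 gene of the second list is not reported here. Of the marker lists, at ZT8 edgeR called 0 of 5 Kupffer cell genes (2 at an unadjusted p below 0.05, 1 by DESeq2), 0 of 5 endothelial genes (0 and 0), 0 of 5 stellate genes (1 and 1), 0 of 4 tested leukocyte genes (0 and 0) and 0 of 4 erythroid genes (0 and 0) by genotype. It called 1 of 5 cholangiocyte genes and 1 of 6 hepatocyte genes as higher in *Rev-erbα-/-* livers (DESeq2: 1 and 5 in either direction). No adipocyte gene could be tested. Over all genes, edgeR called 8.45% at ZT8 and DESeq2 1503 of 14488. Between the times in wild-type livers, edgeR called 2 Kupffer cell genes and 1 stellate gene as lower at ZT20. It called 2 cholangiocyte genes as higher, where 27.7% of all genes passed. In *Rev-erbα-/-* livers, 1 stellate and 1 cholangiocyte gene passed as higher, against 17.5% of all genes. The difference passed for 1 Kupffer cell, 1 stellate and 1 hepatocyte gene, against 5.88% of all genes. Promoter sequences are from RefSeq (GRCm38.p6).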

Additional observations from a re-analysis of the deposited data

Results flagged for a closer look

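The genotype effect on *Elovl3* was larger at ZT8 than at ZT20 by 1.72 on the log2 scale (edgeR quasi-likelihood interaction, adjusted p = 0.00223). All 3 *Rev-erbα-/-* livers were above all wild-type livers at ZT8, and the ranges overlapped at ZT20. For *Elovl5* the effects differed by 1.15 (edgeR adjusted p = 0.00382) and had opposite signs, with all 3 *Rev-erbα-/-* livers above all wild-type livers at ZT8 and below them at ZT20. The same 2 wild-type livers at ZT8 that had high acute-phase genes had the lower *Elovl3* and *Elovl5* levels of their group, and the part of this in the differences was not tested. Without them the differences were 1.42 (edgeR adjusted p = 0.0236) for *Elovl3* and 0.95 (0.0568) for *Elovl5*.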

How the results depend on the processing

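Of the values of single genes recomputed under the alternatives, 586 kept their direction and their side of the threshold, 29 no longer passed, 4 newly passed and 5 changed sign. At ZT8, 2 of the 6 genes passed by genotype, and 1 (*Elovl3*) with only the 6 livers compared, without both acute-phase livers, at an adjusted p below 0.01, with 1 to 2 on leaving out each liver. At ZT20 the count was 1, and 0 at an adjusted p below 0.01 and 0 to 1 on leaving out each liver. The difference between the times passed for 2 genes and for 1 without both acute-phase livers. The rise or fall between the times in *Rev-erbα-/-* livers passed for 4 genes, for 2 at an adjusted p below 0.01 and for 2 to 4 on leaving out each liver. For *Fads2*, whose genotype effect did not pass, the sign changed: the effect at ZT8 was -0.013 with limma-voom and from -0.17 to 0.11 on leaving out each liver, and the difference between the times was from -0.031 to 0.24. Newly passing were *Fads1* between the times in wild-type livers with DESeq2 (adjusted p = 0.0182) and without *Rev-erbα-/-* ZT20 replicate 1 (edgeR, 0.0481), and *Fads2* in the same comparison with the 6 livers alone (edgeR, 0.0466) and without *Rev-erbα-/-* ZT8 replicate 3 (0.0246). The cause of these shifts was not tested, except that fewer livers entered the fits that left some out.

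The replicate block is a fit for paired livers, a pairing that the check of the numbers did not show and cannot exclude. With it, 1 gene passed by genotype at ZT8 and 0 at ZT20, and *Elovl5* had edgeR adjusted p values of 0.0643 and 0.0617. Its rise in *Rev-erbα-/-* livers was also lost (0.0521), and the block ended no other call of the 6 genes.

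Over all genes, calls by genotype at ZT8 numbered 1224, and 542 to 1811 on leaving out each liver, 346 without both acute-phase livers and 472 at an adjusted p below 0.01. At ZT20 they numbered 526, with 239 to 656 and, at the stricter threshold, 223. The difference had 852, with 493 to 1260 and 357, and 493 without both acute-phase livers. Between the times there were 4018 (2865 to 4195, 2343, and 1795 without both acute-phase livers) in wild-type and 2530 (1566 to 2847, and 1231) in *Rev-erbα-/-* livers. Per-length levels of all 6 genes were higher with the longest transcript in every group, because it is shorter than the union of exons. The largest relative shifts were those of *Elovl1*, *Fads1* and *Elovl5*.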
